A study of Drosophila melanogaster with 8 samples.

Results

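The long HP1 domains of the chromosome arms are stretches of at least 10 kb that a deposited domain list for Drosophila melanogaster ovaries marks as bound by heterochromatin protein 1 (HP1). They were chosen by their length and by their place: of 4467 listed domains, 285 reached 10 kb, and 247 of these remained after the centromere-proximal zones were left out. Those zones were domains starting at or beyond 20 Mb on 2L, 20.9 Mb on 3L and 20.4 Mb on X, and domains ending at or before 2 Mb on 3R. No limit was set on 2R. The zones held 378 domains in all, 38 of them of 10 kb or more, and 4089 domains of any length lay outside them. Length chose the members, so the lengths below are a description. The list is a single set for all samples, with no value per sample, so nothing below could be tested against the spread between replicates.

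The list was made by DamID, in which a DNA adenine methyltransferase (Dam) fused to a chromatin protein marks GATC sites near the places where the protein sits. Ovaries of females 0 to 4 days old were used, 160 to 200 per sample. There were 2 Dam-HP1 samples, from the progeny of hsp70-FLP and STOP#1-Dam-HP1 flies, and 2 samples with Dam alone, from the progeny of hsp70-FLP and STOP#1-Dam flies, which measure how accessible each site is to the enzyme. All 4 carry hsp70-FLP, a source of the FLP recombinase, which as background is used to cut out a stop cassette between its target sites and so switch a construct on. The labels name whole ovaries and the title of the series names ovarian somatic cells; which cells made the fusion is not given in the labels, so the list cannot be assigned to a cell type from them. About 30 M reads of 100 nt were obtained per sample. The other 4 samples of the series are RNA-seq libraries (2 control and 2 HP1a knockdown) and were not used here, because no positions of genes in the build of the list (dm3) were at hand. For the same reason no domain is given a gene name, a position relative to exons or a sequence.

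HP1a, encoded by Su(var)205, binds histone H3 methylated at lysine 9 through its chromodomain, and it pairs with itself and recruits partners through its chromoshadow domain. It is concentrated in pericentric heterochromatin, on chromosome 4 and at telomeres. It is also found at sites in the euchromatic arms, where its binding is known to be patchy and to include active genes. Of the 247 long domains, 13 lay in the first 3 Mb of 2R and another 13 within 1 Mb of a left-out zone.

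Long domains were few but held much of the marked sequence. They were 6.04% of the 4089 arm domains and covered 3776 kb of 13631.5 kb, or 27.7% of the bases in arm domains. By comparison, 718 domains of 500 bp, the size of 1 bin of the list, were 17.6% of the domains and held 2.63% of the bases. The 2565 domains of 1 to 4.5 kb held 42.1% and the 559 domains of 5 to 9.5 kb held 27.5%. The 247 long domains thus covered about as many bases as the 559 domains of 5 to 9.5 kb. Over the listed extent of the arms (106 Mb), all domains covered 12.8% and long domains 3.55%.

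Most long domains lay towards the low end of their range of 10 to 44 kb. The median length was 13.5 kb (quartiles 11.5 and 17.5 kb), 93 domains were 10 to 12 kb long, and 65 were 12.5 to 15 kb. Another 53 were 15.5 to 20 kb, 28 were 20.5 to 29.5 kb and 8 were 30 kb or more. Lengths ran on through the threshold, and the counts went up and down from one length to the next. There were 35 domains of 9 kb and 30 of 9.5 kb, but 18 of 10 kb. Beyond that, 18 had 10.5 kb, 15 had 11 kb, 20 had 11.5 kb and 22 had 12 kb. A drop was also seen farther on, from 14 domains of 13.5 kb to 3 of 14 kb, with 11 of 14.5 kb. The 30 domains just outside had a median gap of 64.5 kb to the nearest long domain (0.5 to 772.5 kb), and the 18 just inside one of 130.75 kb (6 to 651 kb).

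The 18 domains of exactly 10 kb lay on all 5 arms. On 2L they were chr2L:21501-31500, chr2L:10322001-10332000, chr2L:13482001-13492000, chr2L:15210001-15220000 and chr2L:18784001-18794000. On 2R they were chr2R:2771501-2781500, chr2R:11600501-11610500 and chr2R:13891001-13901000, and on 3L chr3L:28501-38500, chr3L:10908001-10918000 and chr3L:17122001-17132000. On 3R they were chr3R:3494001-3504000, chr3R:6400501-6410500, chr3R:7266001-7276000 and chr3R:8904001-8914000, and on X chrX:3251001-3261000, chrX:3577501-3587500 and chrX:13835001-13845000. The 30 just outside, at 9.5 kb, included chr2L:6583501-6593000, which is parted by 500 bp from a long domain, and chr2R:9692001-9701500, the farthest of them from any long domain at 772.5 kb.

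The longest domain, of 44 kb, was chr3L:17251001-17295000. It lay in a cluster of 4 long domains, and other domains took up 50% of the 50 kb on either side of it. The next was chrX:15834501-15878000, of 43.5 kb, with 16.5% of its flanks in other domains. The next in length were both on 3R, chr3R:10157001-10194500 (37.5 kb) and chr3R:9810501-9847500 (37 kb), and the longest domain of 2R was chr2R:1663001-1699500 (36.5 kb). Also among the 10 longest were these domains of 3L: chr3L:9983001-10016500 (33.5 kb), chr3L:4865001-4897500 (32.5 kb) and chr3L:9293001-9321500 (28.5 kb). The remaining pair were chrX:18694001-18725000 (31 kb) and chr2L:6531501-6558000 (26.5 kb), the longest domain of 2L. A domain of the same length, chr2R:2427001-2453500, tied with the last. The 10 domains held 350.5 kb, 9.28% of the bases in long domains, and 8 of them had another long domain within 100 kb. The other 2, chr3R:10157001-10194500 and chr3L:4865001-4897500, stood 211 and 419.5 kb from the nearest.

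All 5 arms carried long domains. The counts were 47 on 2L, 42 on 2R, 48 on 3L, 53 on 3R and 57 on X. Per Mb of listed extent this gave 2.36 on 2L, 2.16 on 2R, 2.30 on 3L, 2.05 on 3R and 2.80 on X. The X had the highest density, 2.80 per Mb beside 2.21 on the 4 autosomal arms together. With all lengths counted together it also had more domains, 47.3 per Mb beside 36.3. Long domains were accordingly a like share of all domains on X (5.92%) and on the autosomal arms (6.08%). By arm the share ran from 5.61% on 2R to 6.88% on 2L. The 2L arm also had the largest share of its domain bases in long domains, 31.5% beside 25.2% on 2R, but no domain of 30 kb or more; 3L had 3, 3R and X had 2 each, and 2R had 1. Median lengths were 14.5 kb on 2L, 12.5 kb on 2R, 13 kb on 3L, 13.5 kb on 3R and 13.5 kb on X, which is within the quartiles of each arm.

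**Figure D1:**
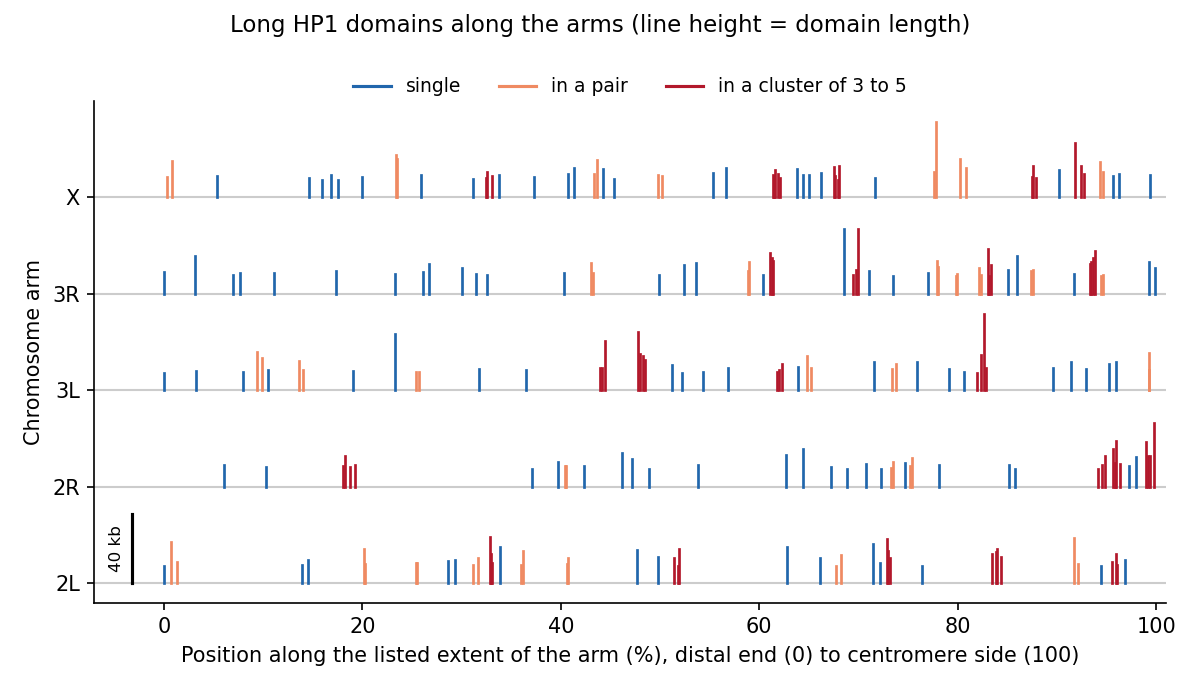
Each vertical line is a long HP1 domain, placed along its arm by percent of the listed extent from the distal end to the centromere side, with a height proportional to its length (bar, 40 kb) and a colour for single domains (109), pairs (62 domains) and clusters of 3 to 5 (76 domains). The longest line, on 3L, is the domain of 44 kb, and the right end of 2R carries a dense group.

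Along the arms, long domains were more numerous towards the centromere side than towards the distal end. When the listed extent of each arm was cut into 5 equal parts, the arms together held 34 long domains in the most distal part, then 36, 43, 64 and 70 towards the centromere. The counts of all domains in the same parts were 689, 819, 811, 833 and 937. The share of domains that were long was thus 4.93%, 4.40%, 5.30%, 7.68% and 7.47%. The outer 40% of the arms held 70 long domains and the inner 40% held 134, beside 1508 and 1770 domains of any length.

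The arms differed in this. The inner against the outer 40% held 27 against 8 long domains on 2R, 33 against 12 on 3R, 30 against 17 on X, 23 against 14 on 3L and 21 against 19 on 2L. Among all domains the share that were long in the outer and the inner 40% was 2.93% and 8.31% on 2R, 3.93% and 8.11% on 3R, 4.52% and 7.81% on X, and 4.65% and 6.55% on 3L. On 2L it went the other way, from 7.51% to 6.93%. The rise on 3L was not steady. Its most distal of the 5 parts had the highest share, 7.38%, and the next part the lowest, 2.79%. The remaining parts of 3L had 7.01%, 6.63% and 6.49%. On 2L the part from 20 to 40% of the extent was the fullest, with 14 long domains. The rule itself bears on this pattern, since it set the inner ends of 4 arms and no inner end on 2R.

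**Figure D2:**
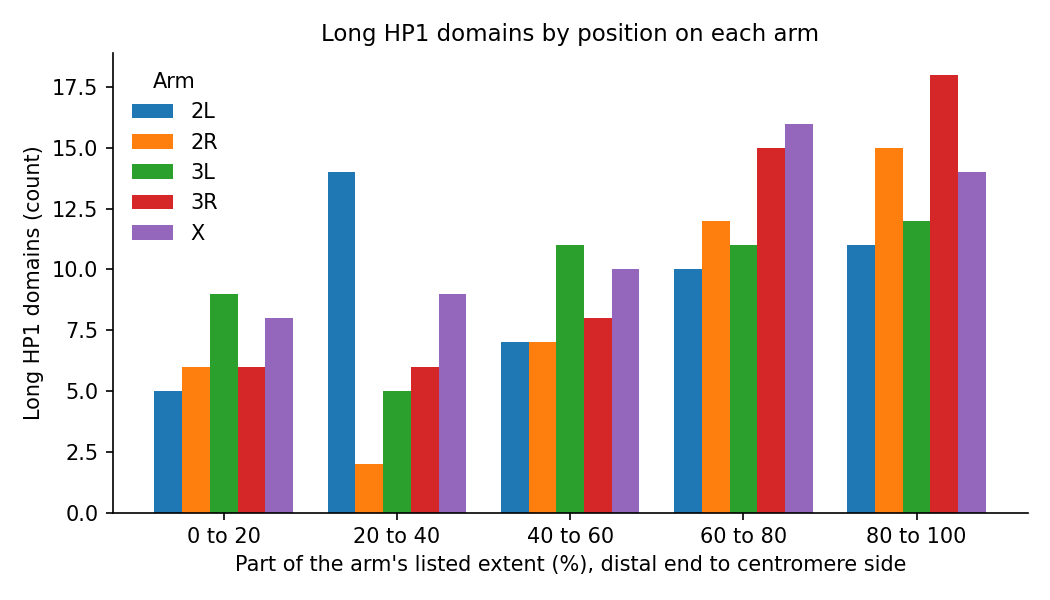
Bars give the number of long HP1 domains in each of 5 equal parts of the listed extent of an arm, from the distal end (left) to the centromere side (right), 1 bar per arm. On 3R the bars rise from 6 to 18 and on 2R the lowest is 2, between 20 and 40%, where 2L has its highest at 14.

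The inner end of 2R stood apart. Its first 3 Mb held 13 long domains over a listed stretch of 1.35 Mb, or 9.65 per Mb, and 14.8% of its 88 domains were long. Beyond 3 Mb the arm had 29 long domains, at 1.60 per Mb, and 4.39% of its domains were long. Domains covered 33.0% of the inner stretch and 11.2% of the rest. In the zones that the rule left out on the other arms, 10.1% of domains were long, at 4.80 per Mb, and 20.6% of the sequence was covered. The inner stretch of 2R was thus above those zones in all 3 measures, and the 247 include its 13 domains because no limit was set there. Without them 234 long domains remained, and the innermost part of the arms held 57 long domains of 849 (6.71%) in place of 70 of 937.

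Spacing was uneven. The 242 gaps between neighbouring long domains on an arm had a median of 203.5 kb (quartiles 54.4 and 624 kb) and a mean of 415 kb, with a standard deviation 1.25 times the mean. That ratio was 1.28 for the gaps between all arm domains, 1.21 for those of 500 bp, 1.12 for those of 1 to 4.5 kb and 1.18 for those of 5 to 9.5 kb, so other classes were spaced about as unevenly. Measured to the nearer neighbour, the median was 80.5 kb. Of the gaps, 85 (35.1%) were 100 kb or less and 21 were 10 kb or less, while 69 were 500 kb or more and 31 were 1 Mb or more. The median gap was shortest on 2L (130 kb) and longest on 3L (297 kb), with 185.5 kb on 2R, 264 kb on 3R and 178 kb on X, and the quartiles of all arms overlapped.

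At the short end, 8 gaps were 2 kb or less, so that 16 long domains were parted from a neighbour by at most 4 bins. Of these gaps, 5 were a single bin of 500 bp: 3 on 2L, 1 on 2R and 1 on X. The pair chrX:4760001-4784000 and chrX:4784501-4806500 together spanned 46.5 kb with a gap of 500 bp. On 2L, chr2L:14488001-14513500 and chr2L:14514001-14532500 spanned 44.5 kb in the same way. On 3L, chr3L:9983001-10016500 and chr3L:10018501-10039500 spanned 56.5 kb across a gap of 2 kb, which itself holds a listed domain of 1 kb with a single bin on either side. The list does not say how many reads lay in the bins of these gaps.

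**Figure D3:**
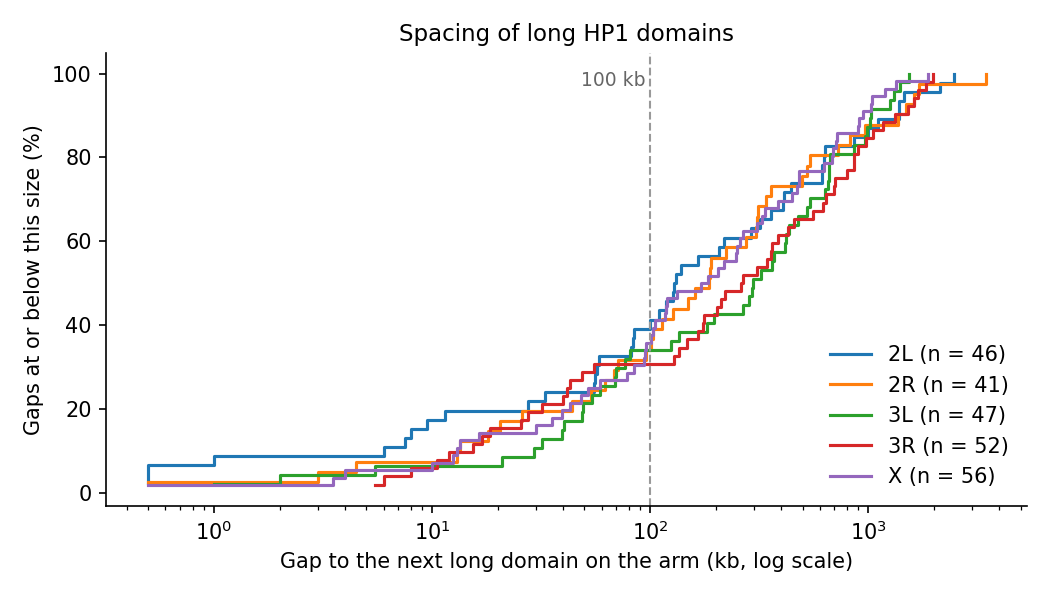
Cumulative share of the gaps between neighbouring long domains at or below each size (kb, log scale), 1 line per arm, with the number of gaps in the legend and a dashed line at 100 kb. The lines cross 100 kb between 30.8% (3R) and 41.3% (2L) and end at the widest gap of each arm, 3455.5 kb on 2R.

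At the wide end, the stretch on 2R from chr2R:13891001-13901000 to chr2R:17356501-17369000 had no long domain over 3455.5 kb. It was not empty of HP1: 118 shorter domains, the longest of 9 kb, covered 8.51% of it. On 2L the widest gap, 2486 kb, began beside chr2L:283501-295500, and 65 shorter domains covered 5.17% of it with none above 5.5 kb. The widest gaps were 1985 kb on 3R, 1881 kb on X and 1534.5 kb on 3L, with 6.47%, 7.34% and 7.92% in shorter domains. Outside long domains, shorter domains covered 9.60% of the arms. Of the 2 widest gaps of each arm, 8 of 10 were below that value, and those of 1704.5 kb on 2R (11.9%) and 1398 kb on 3L (12.6%) were above it.

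The most isolated long domain was chr3R:23396001-23409000, of 13 kb, with its nearest long neighbour 1527.5 kb away and 1.5% of its 50 kb flanks in other domains. On 3L the most isolated were chr3L:6649001-6661000 and chr3L:7632001-7643500, each other's nearest neighbours at 971 kb. On 2R it was chr2R:10624001-10636500 (964 kb), on X chrX:1100501-1112500 (910.5 kb) and on 2L chr2L:12495501-12516500 (632 kb). These domains were 11.5 to 13 kb long, apart from that on 2L, which had 21 kb.

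Long domains were grouped into clusters by linking those at most 100 kb apart. This gave 53 clusters with 138 of the 247 domains (55.9%) and left 109 single. There were 31 pairs, 13 clusters of 3, 8 of 4 and 1 of 5. The share in clusters was 68.1% on 2L, 50.0% on 2R, 54.2% on 3L, 50.9% on 3R and 56.1% on X. As a yardstick, 38.7% of all 4089 arm domains had a long domain within 100 kb, with 33.4% of those of 500 bp, 37.7% of those of 1 to 4.5 kb and 42.6% of those of 5 to 9.5 kb. With the arms pooled, the share rose with each class of length, and no test of the step to 55.9% was made. On 3L the 3 shorter classes did not rise, with 42.3%, 42.8% and 41.4% beside 54.2% of long domains. Without the inner 3 Mb of 2R, 127 of 234 long domains (54.3%) were in clusters. The share in clusters went up along the arms, from 35.3% in the most distal of the 5 equal parts to 50.0%, 51.2%, 57.8% and 70.0% towards the centromere, as did the count of long domains that can be linked.

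The 22 clusters of 3 or more held 76 long domains (30.8%) and spanned 74.5 to 246 kb each (median 136.5 kb). Domains of any length covered a median of 53.4% of their span, from 28.9% to 88.6%. Each span begins and ends with a long domain and its cover includes the long domains, so high values are partly set by the linking. They lay on every arm, with 5 on 2L, 4 each on 2R, 3L and 3R, and 5 on X.

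On 2L the most compact was chr2L:6531501-6606000, where long domains of 26.5, 17 and 11.5 kb lay in 74.5 kb and 88.6% of the span was covered, the highest of the 22. The largest of the arm was chr2L:16601501-16791500, with domains of 17, 18, 19.5 and 15 kb. At chr2L:10226001-10357500 there were domains of 14.5, 10 and 19.5 kb, and at chr2L:14488001-14580000 domains of 25.5, 18.5 and 14.5 kb. The innermost, chr2L:19012001-19111500, had domains of 12.5, 17 and 10.5 kb and lay less than 1 Mb from the left-out zone.

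On 2R, 3 of the 4 clusters were in the inner group described above. The first, chr2R:1663001-1856000, held domains of 36.5, 17.5, 17.5 and 26 kb. The second, chr2R:2345501-2494000, held domains of 13, 26.5, 13.5 and 22 kb, and the last of them, chr2R:2644001-2781500, domains of 17.5, 12.5 and 10 kb. The remaining cluster was far out on the arm at chr2R:17356501-17602500, where domains of 12.5, 11.5, 17.5 and 12 kb were spread over 246 kb, the widest span and, at 28.9%, the lowest cover of the 22. It bordered the widest gap of the list.

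On 3L, chr3L:9983001-10156500 held domains of 33.5, 21, 19.5 and 17.5 kb and was covered to 69.7%. The cluster with the longest domain, chr3L:17122001-17313500, held domains of 10, 20, 44 and 13 kb beside 14 shorter ones. The others were chr3L:9178001-9321500, with domains of 13, 13 and 28.5 kb, and chr3L:12921001-13030500, with domains of 10.5, 11.5 and 15 kb.

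On 3R, chr3R:3651001-3800500 held 4 domains of 24.5, 20.5, 18.5 and 17 kb. At chr3R:12034501-12122500, domains of 19, 20.5 and 23.5 kb followed each other with no shorter domain between them and covered 71.6% of 88 kb. The others were chr3R:6344001-6442000, with domains of 16.5, 10 and 25.5 kb, and chr3R:9810501-9946000, with domains of 37, 13.5 and 11 kb.

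On X, chrX:12509001-12669000 was the only cluster of 5, with domains of 12.5, 12, 15.5, 13.5 and 11 kb in 160 kb. At chrX:13752501-13876000 there were 4, of 17.5, 12, 10 and 18 kb. Both belonged to stretches among the richest in windows of 1 Mb: the window from 13 Mb on X held 8 long domains and that from 12 Mb held 5. The other clusters were chrX:6623501-6759000 (11, 14.5 and 12 kb), chrX:17818501-17921500 (11.5, 18 and 11 kb) and chrX:18694001-18900000 (31, 18 and 13.5 kb). Over 99 full windows of 1 Mb, the median was 2 long domains, 17 windows had none and 12 had 5 or more, which held 31.2% of the long domains in the windows; the highest count was 9, in the window from 2 Mb on 2R.

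Clustered long domains were longer than single ones. The median was 12.5 kb for the 109 single domains, 13.5 kb for the 62 in pairs and 16.75 kb for the 76 in clusters of 3 or more. Of the 37 domains of 20 kb or more, 29 (78.4%) were in clusters, beside 48.4% of those of 10 to 12 kb, 46.2% of those of 12.5 to 15 kb and 65.4% of those of 15.5 to 19.5 kb. The median gap to the nearest long domain was 29.5 kb for those of 20 kb or more and 109.5 kb for those of 10 to 12 kb. Across the 247 domains, Spearman's rho of length and this gap was -0.28, given as a description, since neighbours share the gap.

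**Figure D4:**
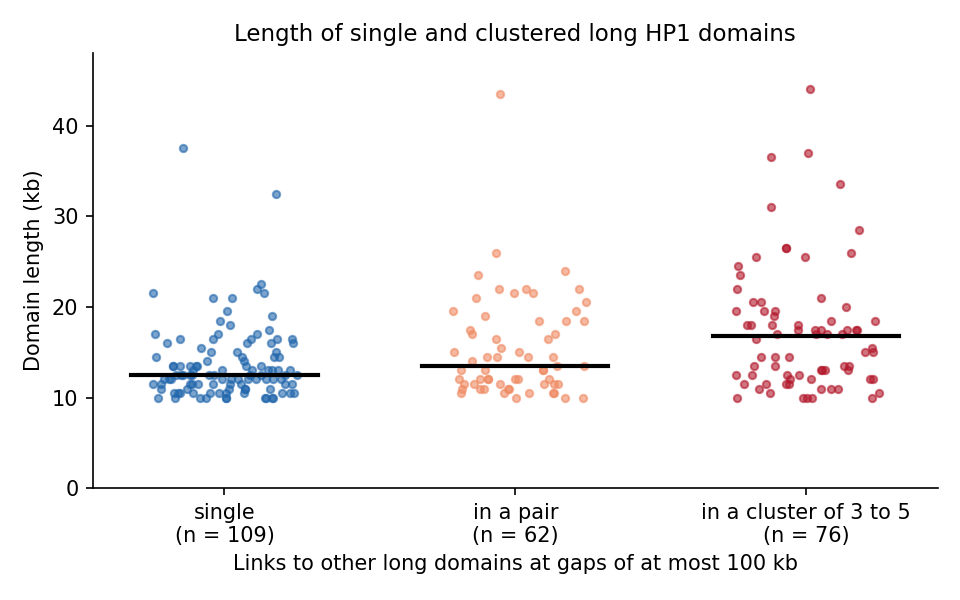
Each point is a long HP1 domain, with its length in kb, set by whether it stood alone (n = 109), in a pair (n = 62) or in a cluster of 3 to 5 (n = 76) at gaps of at most 100 kb; horizontal position within a column is only for display. Black lines mark medians of 12.5, 13.5 and 16.75 kb, and the ranges overlap widely.

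By the median, more of the sequence beside long domains lay in other listed domains than beside shorter domains. In the 50 kb on each side, a median of 16.5% of the sequence lay in other domains (quartiles 9 and 27.25%, range 0 to 60.5%). The same measure was 11.5% around domains of 500 bp, 11% around those of 1 to 4.5 kb and 12.5% around those of 5 to 9.5 kb. Of the long domains, 53 (21.5%) had 30% or more of their flanks covered, beside 10.9% of all arm domains, and the quartiles of long and of all domains (6 and 20%) overlapped. The single long domains, which by definition have no long neighbour there, had a median of 10%, below that of each shorter class. Those in clusters of 3 or more had 29.5%, so part of the cover is the other long domains themselves. Counting only neighbours under 10 kb, the medians were 11.5% for long domains and 9.5%, 9% and 10% for the shorter classes in rising order of length, and each class had a median of 4 such neighbours within 50 kb.

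Over whole arms the order was the same on all 5. The median flank cover of long domains beside that of all domains was 14.5% and 9.5% on 2L, 13.5% and 11% on 2R, 16.75% and 13% on 3L, 16.5% and 10% on 3R, and 18% and 15% on X. On 2R the difference did not hold within the stretches described above: beyond 3 Mb the median was 9.5% for long and for all domains, and in the first 3 Mb it was 26.5% for long domains and 35% for all. Within the 5 equal parts of the arms, from the distal end inwards, the median was 15%, 13.25%, 16.5%, 16.75% and 20.5% for long domains. For domains under 10 kb in the same parts it was 9%, 12%, 11.5%, 11% and 14%, so long domains were the higher in each part.

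By distance, the excess was widest between 5 and 30 kb from the edge. Other domains took up 22.8% of the sequence 5 to 10 kb away from long domains, 23.1% at 10 to 20 kb and 21.1% at 20 to 30 kb. At 50 to 75 kb the value was 18.6%, at 100 to 150 kb 16.2% and at 150 to 200 kb 13.3%, close to the 12.8% of the arms as a whole. Domains of 5 to 9.5 kb had a smaller rise at the same distances, with 17.4%, 18.3% and 16.3% from 5 to 30 kb. Around domains of 1 to 4.5 kb the values from 5 kb outwards lay between 13.4% and 14.9%. Within 2 kb of a long domain the value was 9.08%; the bin next to a domain is always outside other domains, which lowers it for every class.

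**Figure D5:**
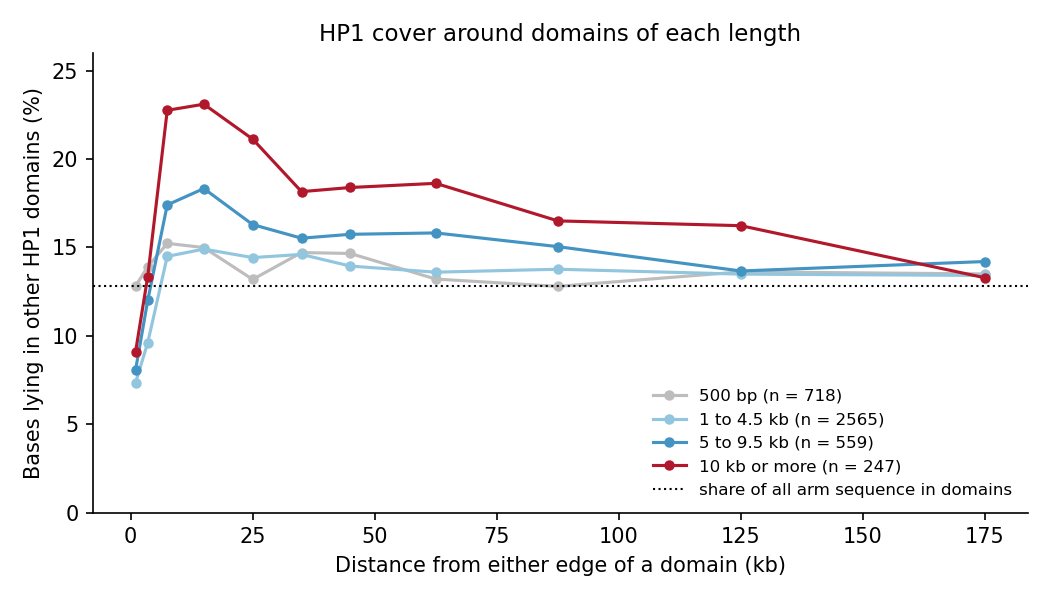
Percent of sequence lying in other HP1 domains at increasing distance (kb, both sides pooled, points at the middle of each distance band) from domains of 4 length classes, with a dotted line at the share of all arm sequence in domains (12.8%). The line of long domains peaks at 23.1% and meets the others at 150 to 200 kb, where it stands at 13.3%.

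The domain next to a long domain was most often of 1 to 4.5 kb, the commonest class of the list. The median gap to the nearest domain of any length was 5 kb for long domains, beside 6 kb for all arm domains. It was 3.75, 7 and 6 kb for the 3 shorter classes in rising order of length. The nearest domain had 1 to 4.5 kb for 148 long domains (59.9%) and 500 bp for 35 (14.2%). It had 5 to 9.5 kb for 33 (13.4%) and 10 kb or more for 31 (12.6%). Over all arm domains these classes made up 62.7%, 17.6%, 13.7% and 6.04%, so the shares of the 3 shorter classes were near their background and that of long neighbours was about 2 times it, with no test made. A single bin parted 52 long domains (21.1%) from their nearest neighbour, beside 21.0% of all arm domains. By class this was 30.8% for domains of 500 bp, 18.6% for 1 to 4.5 kb and 19.0% for 5 to 9.5 kb. For 7 long domains both edges had such a break, the domain of 44 kb among them. More than 10 kb lay between 55 long domains (22.3%) and any other domain, beside 32.6% of all and 25.1% of those of 500 bp. Only chr3L:689501-700500, of 11 kb, had no other domain within 50 kb on either side.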

How the data were processed

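The authors deposited a single list of HP1 domains for ovaries. Per the file headers the domains come from a hidden Markov model (HMM), and their starts and ends all fall on multiples of 500 bp; no score per domain was used. Per the submitters' processing notes, Bowtie2 and HTSeq were used with the builds dm3 and BDGP5; their versions and roles, the settings of the model and how replicates were pooled are not given in the sources used here. Per the labels' protocols, 16 PCR cycles were applied to about 0.5 µg of digested DNA. Bins with few GATC sites or poorly mapped reads can break or hide a domain, and the depth behind each domain is unknown. No domain on chromosome 4 was analysed here.

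Domains were filtered, measured and drawn with Python 3.11.15, numpy 2.4.6, scipy 1.17.1 and matplotlib 3.10.9. Positions are counted from 1. The extent of an arm ran from its first to its last listed domain outside the left-out zones. Gaps were measured between edges, clusters linked long domains at most 100 kb apart, and flank cover was the percent of the 50 kb on each side in other domains, left-out zones included. Flanks were cut at the start of an arm and at the end of its last listed domain, and the percent is of what remained. The 30% of chr3R:27880001-27892500, the last listed domain of 3R, thus comes from its inner flank alone. The functions were tested on simulated data. No test between groups was possible. The domains named are the 10 longest, the longest and the most isolated of each arm, the members of clusters of 3 or more, those of 10 kb and some of 9.5 kb; pairs at short gaps, domains beside wide gaps and the domain with bare flanks were picked once their values were known. The members, the rule and the measures were chosen with earlier results of these data known.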

Additional observations from a re-analysis of the deposited data

How the results depend on the processing

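Of the alternatives tried, those on length and on linking moved values most. With a threshold of 8 kb there were 388 long domains, the median gap was 124.5 kb and 64.9% were in clusters; with 15 kb these were 96 domains, 456 kb and 42.7%. Linking at 50 kb put 40.5% in clusters and linking at 200 kb put 73.3%. When domains parted by at most 500 bp or at most 2 kb were joined first, there were 287 and 317 long domains, and the median gap to the nearest domain was 6.5 and 7.5 kb in place of 5 kb. That follows from the joining, which removes the short gaps. From one long domain to the next, the median gap was then 179.25 and 153.25 kb in place of 203.5 kb. The share in clusters was 58.2% and 62.1% in place of 55.9%. Median flank cover stayed between 16% and 19% under every alternative. Moving the limits 1 Mb into the arms left 231 domains. That setting also left out the 4 long domains of chr2R:1663001-1856000, although the rule sets no limit on 2R. Leaving out 2R up to 3 Mb was chosen after seeing the data. No listed domain lay on chromosome 4 or a scaffold, so leaving these out changed nothing. No paired analysis was possible because the list holds no value per sample, and for the same reason no replicate could be left out.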

Other observations

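The distal ends of the arms differed in their outermost long domain. On 2L it was chr2L:21501-31500, which began 3 kb from the first listed position, and on 3L chr3L:28501-38500, 9 kb from it; both had 10 kb, the least that the rule admits. On 3R the last listed domain was itself long, chr3R:27880001-27892500, of 12.5 kb. On X the outermost was chrX:73001-84500, of 11.5 kb, 63.5 kb from the first listed position. On 2R it was chr2R:19933501-19946000, of 12.5 kb, 1174 kb from the last listed position. Positions of the chromosome ends were not used here, so the distances are to the outermost domain of the list.

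When domains parted by a single bin were joined, the longest stretch of the arms was chr3L:9983001-10044000, of 61 kb, made of 4 listed domains with the longest at 33.5 kb. The longest single domain of the list, without joining, had 49 kb and lay in a left-out zone. Joined stretches of the left-out zones are not given here, so arms and zones cannot be ranked by them. The next joined stretches of the arms were chrX:4758501-4806500 (48 kb, 3 domains) and chr3L:17249001-17296000 (47 kb, 3 domains).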
